A study of Bos taurus with 16 samples.

Results

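The cytosolic class II aminoacyl-tRNA synthetases were followed in bovine follicular cells through 6 genes counted under their older symbols: AARS, GARS, HARS, KARS, SARS and TARS. The genes were taken by these names from a table of 36824 gene entries, and all 6 were found and passed the filter on low counts. Their current symbols are AARS1, GARS1, HARS1, KARS1, SARS1 and TARS1.

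RNA came from cumulus cells, which surround the oocyte, and from granulosa cells, which line the follicle wall, of cattle (Bos taurus). The ipsilateral ovary carried the corpus luteum, the gland that secretes progesterone after ovulation, and the contralateral ovary was the animal's other ovary. The 2 sides and 2 cell types made 4 groups of 4 libraries, and the labels used give no treatment other than the side and neither strain nor age. The design text describes pools of 3 animals for the oocyte-cumulus complexes. How granulosa cells were pooled and whether groups share animals is not stated there. The p-values measure the spread between libraries, and the fits used no pairing.

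Aminoacyl-tRNA synthetases join each amino acid to its matching tRNA, the step that fixes the genetic code before the ribosome reads it. Class II enzymes share a fold of antiparallel strands with 3 conserved sequence motifs and mostly work as dimers. The subclass IIa enzymes here charge tRNAs with serine (SARS), threonine (TARS), histidine (HARS) and glycine (GARS). KARS, of subclass IIb, charges them with lysine and is part of the multi-synthetase complex of animal cells. AARS charges tRNA with alanine and also removes wrongly attached amino acids. GARS and KARS each also supply the mitochondrial enzyme from the same gene. Cumulus cells are known to pass amino acids to the oocyte through gap junctions.

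Libraries ranged from 10.1 M to 21.9 M counts (M for mega). The 6 genes together held 897 to 975 CPM in cumulus and 1157 to 1309 CPM in granulosa libraries, where CPM is the count per 1 M counts of the library after trimmed-mean (TMM) scaling over all 16 libraries. Of 75 listed marker entries for follicular, oocyte, blood and epithelial cells, 4 could be matched by name, none of them a cumulus or granulosa marker, so the cell type labels were not checked. Of the oocyte genes, H1FOO and BCL2L10 were matched, out of 17 listed. They stood at 91.3 and 110 CPM in contralateral cumulus library 4, at 8.92 and 9.60 CPM in contralateral cumulus library 2, at 5.17 and 5.46 CPM in contralateral granulosa library 3, and at 1.28 CPM or less elsewhere. The platelet and leukocyte gene PF4, 1 of 10 listed, lay between 0 and 0.242 CPM in cumulus and between 0.450 and 3.86 CPM in granulosa cells, so it moved with cell type. The surface epithelium gene MUC16, 1 of 5 listed, lay between 0 and 2.09 CPM in cumulus and between 0 and 44.4 CPM in granulosa cells. Fits without libraries high in H1FOO and BCL2L10 are given in the last section. The part of these other cells in the results was otherwise not tested. In bulk RNA, a difference in the number of cells of a type and a difference in RNA per cell cannot be told apart.

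The first question was how the 6 genes differ between cumulus and granulosa cells. SARS, TARS, HARS and AARS were 1.52-fold to 1.79-fold higher in granulosa cells, whereas KARS was 1.16-fold higher in cumulus cells, and GARS did not pass. By edgeR's quasi-likelihood test with Benjamini-Hochberg adjustment over 18038 entries, 4 of 6 genes were thus higher in granulosa and 1 of 6 higher in cumulus cells at an adjusted p under 0.05. Of all entries tested, 60.2% passed, 30.3% as higher in granulosa and 29.9% as higher in cumulus cells. Among the 2831 entries with a mean at or above that of the lowest of the 6 genes (79.7 CPM), 45.8% passed toward granulosa cells, 31.9% toward cumulus cells and 77.7% in either direction, so the counts among the 6 genes lay near this background. With ipsilateral libraries alone 4 of 6 genes were higher in granulosa and 0 higher in cumulus cells, against 23.6% and 20.7% of entries (44.3% in either direction). Of the 2831 entries, 995 passed toward granulosa and 735 toward cumulus cells in this fit. With contralateral libraries alone 4 genes were higher in granulosa and 1 higher in cumulus cells, against 23% and 24.6% of entries (47.6% in either direction). Here 1139 of the 2831 entries passed toward granulosa and 767 toward cumulus cells. The median log2 fold change (cumulus minus granulosa throughout) was -0.66 over the 6 genes, 0.03 over all entries and -0.12 over the 2831 entries.

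SARS, the seryl-tRNA synthetase gene, also serves selenocysteine tRNA, which is first loaded with serine. It read 96.4, 93.3, 89.8 and 87.6 CPM in ipsilateral cumulus and 114, 89.5, 91.2 and 99.8 CPM in contralateral cumulus libraries 1 to 4. In granulosa libraries it read 172, 172, 187 and 157 CPM on the ipsilateral and 196, 193, 163 and 141 CPM on the contralateral side. Every granulosa library thus lay above every cumulus library. How many of all entries separate the cell types in this way was not counted, for SARS or for the genes below. Mean SARS was 95.2 ± 8.66 CPM over cumulus and 173 ± 18.9 CPM over granulosa libraries (SD, n = 8 each). The difference was 1.79-fold, with a 95% interval from 1.60 to 2.02 (log2 fold change -0.84 ± 0.08 SE, edgeR adjusted p = 1.55e-07).

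TARS, the threonyl-tRNA synthetase gene, read 112, 121, 118 and 111 CPM in ipsilateral cumulus and 107, 117, 123 and 119 CPM in contralateral cumulus libraries. In granulosa libraries it read 210, 199, 211 and 186 CPM on the ipsilateral and 216, 201, 180 and 180 CPM on the contralateral side. The cell types did not overlap, and the spread within cumulus cells was small, with a coefficient of variation of 4.77%. Mean TARS was 116 ± 5.53 CPM over cumulus and 198 ± 14.4 CPM over granulosa libraries (SD, n = 8 each). This was a 1.69-fold difference, with a 95% interval from 1.54 to 1.85 (log2 fold change -0.76 ± 0.06 SE, edgeR adjusted p = 2.91e-08).

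HARS, the histidyl-tRNA synthetase gene, read 82.5, 96.9, 86.2 and 70.4 CPM in ipsilateral cumulus and 73.2, 79.0, 69.9 and 79.0 CPM in contralateral cumulus libraries. Granulosa libraries read 132, 129, 154 and 118 CPM on the ipsilateral and 145, 115, 118 and 150 CPM on the contralateral side. Again all granulosa libraries were above all cumulus libraries. Mean HARS was 79.6 ± 9.04 CPM over cumulus and 133 ± 15.4 CPM over granulosa libraries (SD, n = 8 each). HARS was 1.65-fold higher in granulosa cells, with a 95% interval from 1.46 to 1.86 (log2 fold change -0.72 ± 0.08 SE, edgeR adjusted p = 1.75e-06).

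GARS, the glycyl-tRNA synthetase gene, was the most variable of the 6 within groups. It read 54.7, 72.0, 58.2 and 85.4 CPM in ipsilateral cumulus and 70.0, 77.4, 104 and 86.3 CPM in contralateral cumulus libraries. In ipsilateral granulosa libraries it ran from 54.1 CPM (library 3) to 132 CPM (library 1), with 71.6 and 102 CPM in libraries 2 and 4. Contralateral granulosa libraries read 77.6, 61.2, 88.9 and 80.5 CPM. The cell types overlapped, and the log2 fold change was -0.12 ± 0.16 SE (edgeR adjusted p = 0.530), with an interval from 1.17-fold higher in cumulus to 1.38-fold higher in granulosa cells. On the ipsilateral side alone GARS had -0.40 (adjusted p = 0.243) and on the contralateral side alone 0.16 (adjusted p = 0.444), and without ipsilateral granulosa library 1 the value over both sides was 0.00.

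KARS, the lysyl-tRNA synthetase gene, read 428, 367, 394 and 362 CPM in ipsilateral cumulus and 372, 378, 362 and 371 CPM in contralateral cumulus libraries. Granulosa libraries read 307, 352, 378 and 318 CPM on the ipsilateral and 328, 345, 303 and 326 CPM on the contralateral side. Ipsilateral groups overlapped through granulosa library 3, and contralateral groups did not overlap. Mean KARS was 379 ± 22.5 CPM over cumulus and 332 ± 25.0 CPM over granulosa libraries (SD, n = 8 each). KARS was 1.16-fold higher in cumulus cells, with a 95% interval from 1.06 to 1.26 (log2 fold change 0.21 ± 0.06 SE, edgeR adjusted p = 0.00612). With ipsilateral libraries alone the log2 fold change was also 0.21, but did not pass (adjusted p = 0.130), and with contralateral libraries alone it was 0.22 (adjusted p = 0.0313). A further entry with like counts, ENSBTAG00000015677, passed over both sides (0.17, edgeR adjusted p = 0.0161). It passed neither with ipsilateral libraries alone (0.17, edgeR adjusted p = 0.199) nor with contralateral libraries alone (0.19, edgeR adjusted p = 0.0563).

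AARS, the alanyl-tRNA synthetase gene, read 198, 195, 185 and 182 CPM in ipsilateral cumulus and 205, 195, 218 and 220 CPM in contralateral cumulus libraries. In granulosa libraries it read 295, 264, 326 and 300 CPM on the ipsilateral and 346, 286, 306 and 324 CPM on the contralateral side. No cumulus library reached the lowest granulosa library. Mean AARS was 199.7 ± 13.9 CPM over cumulus and 306 ± 25.8 CPM over granulosa libraries (SD, n = 8 each). AARS was 1.52-fold higher in granulosa cells, with a 95% interval from 1.39 to 1.66 (log2 fold change -0.60 ± 0.06 SE, edgeR adjusted p = 3.94e-07).

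**Figure D1:**
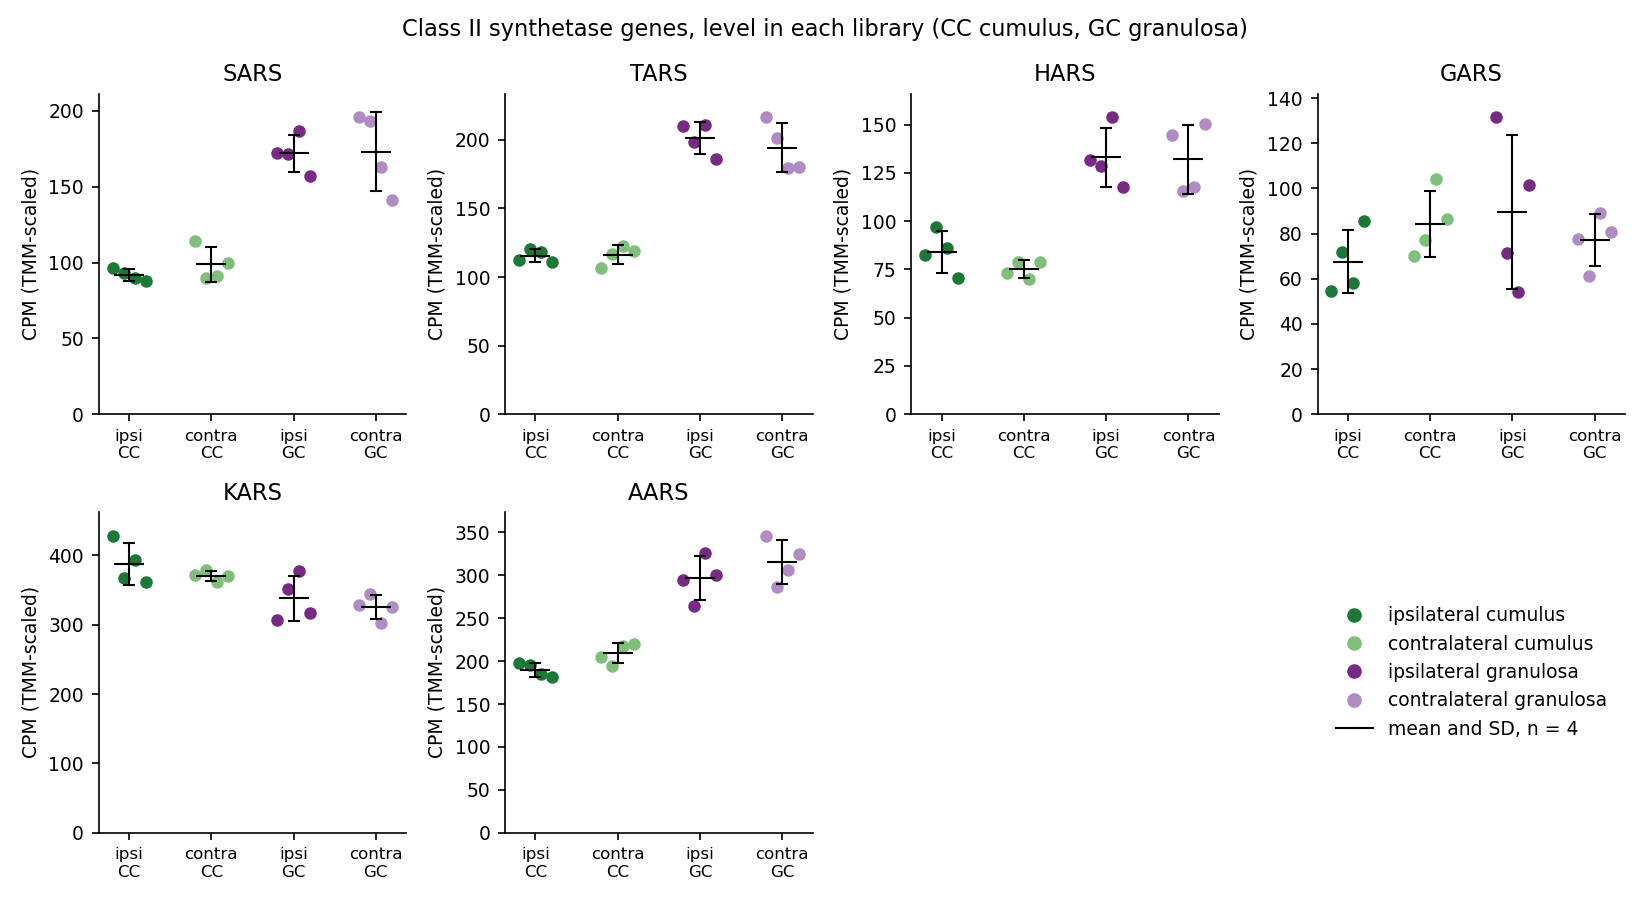
CPM of each of the 6 genes (vertical axis, from 0) in the 16 libraries by group, with the mean and SD of each group of 4 as bars. SARS, TARS, HARS and AARS have all granulosa libraries above all cumulus libraries, KARS lies higher in cumulus cells, and GARS overlaps, from 54.1 to 132 CPM in granulosa cells. The share of all entries without overlap was not counted.

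For 5 of the 6 genes the order of the group means split the 4 groups by cell type first and by side second. SARS and AARS ran from ipsilateral cumulus through contralateral cumulus and ipsilateral granulosa to contralateral granulosa, with group means of 91.8, 98.7, 172 and 173 CPM for SARS and 190, 209, 296 and 316 CPM for AARS. TARS had 116 and 116 CPM in the cumulus groups and 194 and 201 CPM in contralateral and ipsilateral granulosa cells. HARS ran from contralateral cumulus (75.3 CPM) and ipsilateral cumulus (84.0) to contralateral and ipsilateral granulosa cells (132 and 133). KARS had 325 and 338 CPM in contralateral and ipsilateral granulosa cells and 371 and 388 CPM in contralateral and ipsilateral cumulus cells. Groups of the same cell type, neighbours in these orders, overlapped for every gene. GARS had contralateral and ipsilateral cumulus at 84.4 and 67.6 CPM and contralateral and ipsilateral granulosa at 77.1 and 89.7 CPM, all overlapping.

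The share of each gene in the summed CPM of the 6 does not depend on library scaling. KARS took 40.1% ± 2.20 of this sum in cumulus and 27.1% ± 1.83 in granulosa cells (SD, n = 8 each), and its lowest cumulus library (37.4%) lay above its highest granulosa library (29.6%). TARS took 12.3% ± 0.547 in cumulus and 16.2% ± 0.681 in granulosa cells, again with no overlap (at most 12.8% against at least 14.98%). AARS took 21.1% ± 1.05 and 25.0% ± 1.64, SARS 10.07% ± 0.876 and 14.1% ± 1.26, and HARS 8.43% ± 0.950 and 10.8% ± 0.957. For these 3 genes the highest cumulus library lay above the lowest granulosa library, so the shares overlapped where the levels did not. GARS took 8.04% ± 1.68 and 6.84% ± 2.05. The shares add to a fixed total and so are not independent, and since they are not per transcript length they do not rank the genes against each other.

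The ratio of SARS, TARS, AARS or HARS to KARS within a library is also free of scaling, and it did not overlap between the cell types. The ranges of the levels given above, with KARS higher in cumulus cells, already fix this outcome. It is thus no separate support. SARS to KARS was 0.225 to 0.308 in cumulus and 0.433 to 0.596 in granulosa cells. TARS to KARS was 0.262 to 0.339 and 0.553 to 0.685. AARS to KARS was 0.463 to 0.603 and 0.751 to 1.05, and HARS to KARS was 0.193 to 0.264 and 0.335 to 0.461. The ratio of TARS to SARS, both higher in granulosa cells, overlapped between the cell types (0.932 to 1.35 and 1.04 to 1.28).

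**Figure D2:**
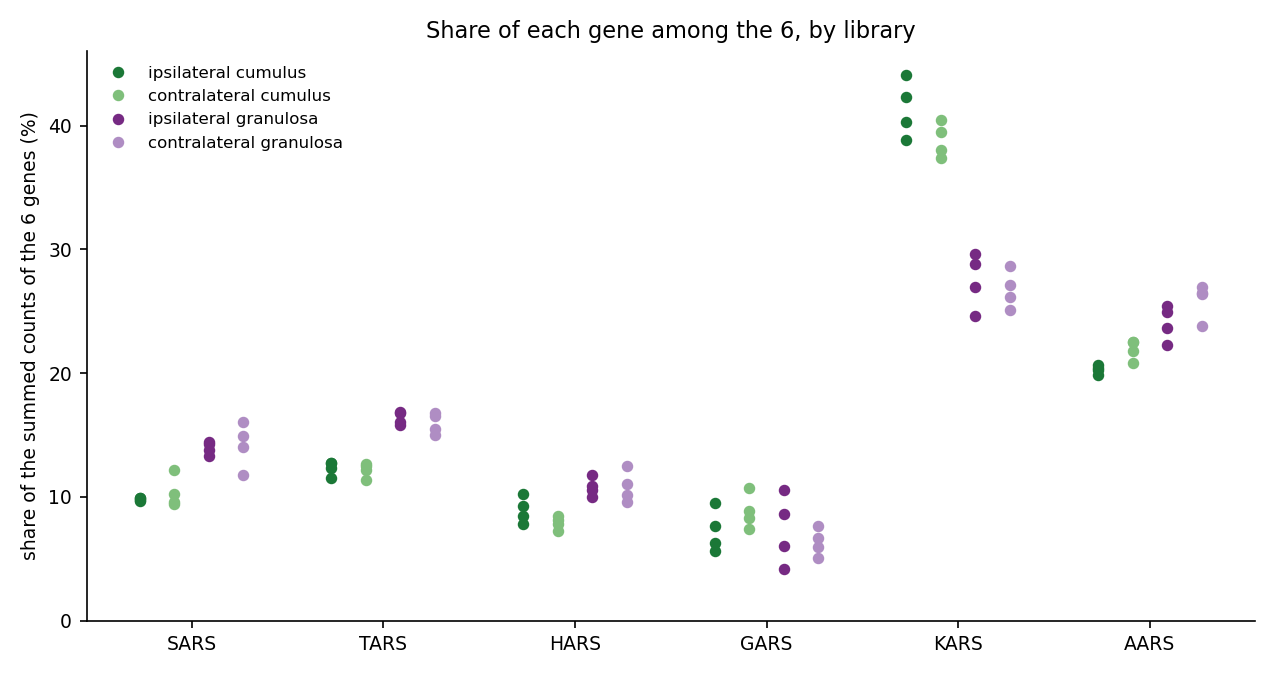
Share of each gene in the summed counts of the 6 genes (percent, vertical axis), 1 point per library, coloured by group. The KARS share lies higher in all 8 cumulus libraries (at least 37.4%) and the TARS share in all 8 granulosa libraries, while the other 4 overlap.

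Of the other cytosolic synthetases, 12 of 33 listed symbols, some of them alternative names of 1 gene, were matched. Among these 12 entries, 8 were higher in granulosa and 1 higher in cumulus cells, with a median log2 fold change of -0.38, against 30.3% and 29.9% of all entries, or 45.8% and 31.9% of the entries at the level of the 6 genes. The count of 8 was 6 with ipsilateral libraries alone, 9 with DESeq2 and 10 without contralateral cumulus library 3 or contralateral granulosa library 2. EPRS, the glutamyl- and prolyl-tRNA synthetase gene, whose prolyl part is of class II, was 1.60-fold higher in granulosa cells (log2 fold change -0.68 ± 0.05 SE). NARS, the asparaginyl enzyme gene of subclass IIb, the subclass of KARS, was 1.26-fold higher in granulosa cells (-0.34 ± 0.06). The class I genes WARS (-1.19 ± 0.08), VARS (-0.56 ± 0.08) and MARS (-0.49 ± 0.08) were also higher there, as were YARS, IARS and RARS, while CARS (-0.42 ± 0.20), QARS (-0.17 ± 0.07) and LARS (-0.00 ± 0.06) did not pass. With ipsilateral libraries alone YARS, IARS and RARS did not pass either (edgeR adjusted p = 0.0604, 0.102 and 0.162). CARS had -1.02 with ipsilateral libraries alone (edgeR adjusted p = 0.00458) and 0.18 with contralateral libraries alone (edgeR adjusted p = 0.655). CARS also passed without contralateral cumulus library 3 (-0.58, edgeR adjusted p = 0.0135), ipsilateral granulosa library 3 (-0.49, edgeR adjusted p = 0.0433) or contralateral granulosa library 2 (-0.50, edgeR adjusted p = 0.0475). QARS lay near the threshold and passed under 6 of 27 alternatives, with an adjusted p of 0.0385 by DESeq2 and of 0.0249 to 0.0475 by edgeR with RLE scaling (relative log expression), or without contralateral cumulus library 3, ipsilateral cumulus library 4, ipsilateral granulosa library 4 or contralateral granulosa library 2. The only one of the 12 called higher in cumulus cells was TARSL2, a paralog of TARS now named TARS3, at a mean of 51.6 ± 7.07 CPM over cumulus and 14.8 ± 4.43 CPM over granulosa libraries (SD, n = 8 each), or 3.54-fold higher (1.82 ± 0.18, edgeR adjusted p = 2.87e-07). TARS and TARSL2 thus differed between cell types in opposite directions, and reads from stretches that the paralogs share cannot be assigned with certainty. Of the genes described that belong to the multi-synthetase complex, KARS was higher in cumulus cells, EPRS, MARS, IARS and RARS were higher in granulosa cells, and LARS and QARS did not pass, within the limits given above for IARS, RARS and QARS.

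**Figure D3:**
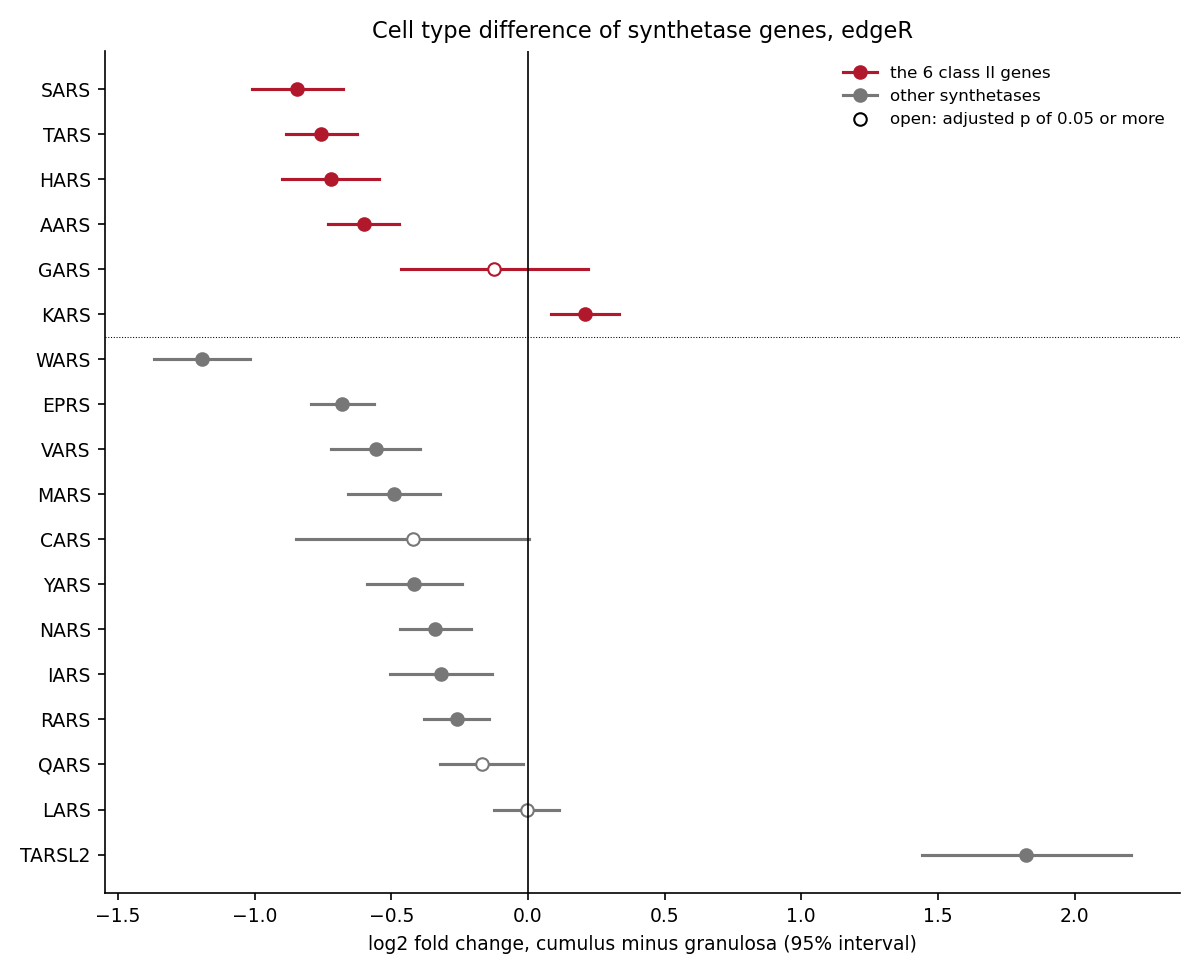
Log2 fold change, cumulus minus granulosa (horizontal axis), with its 95% interval for the 6 class II genes (red) and 12 other synthetase entries (grey), with open symbols where the adjusted p was 0.05 or more. KARS (0.21) and TARSL2 (1.82) are the entries that passed to the right of 0.

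Variation within groups was compared among the 6 genes through the deviation of log2 CPM (with 0.5 added) from the group mean in the 16 libraries. Its SD, after removing the group means, was 0.09 for TARS, 0.10 for KARS and AARS, 0.15 for SARS, 0.16 for HARS and 0.36 for GARS. Over the 15 pairs the median Pearson r was 0.12, with 11 pairs above 0 and 4 below. For GARS and KARS, r was -0.91 and Spearman's rho -0.93 (n = 16, permutation within groups, two-sided, p = 0.00013 each, adjusted p = 0.00195 over the 15 pairs). This was the only pair that passed.

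The opposite movement of GARS and KARS was present in both cell types, with r of -0.80 over the 8 cumulus and -0.97 over the 8 granulosa libraries. In ipsilateral granulosa library 1, GARS lay 0.63 above and KARS 0.14 below their group means on the log2 scale. In ipsilateral granulosa library 3, GARS was at -0.64 and KARS at 0.16. Without these libraries, the 2 farthest in GARS, r was -0.86, and with CPM of library totals in place of TMM scaling it was -0.79. Deviations of GARS had r = 0.02 with those of the log2 total count and 0.45 with those of the log2 TMM factor, and for KARS these were -0.18 and -0.42. The other 4 genes all ran against the total count, with r of -0.67 for TARS, -0.57 for AARS, -0.56 for HARS and -0.37 for SARS, so depth moved with the pairs among them, and its part in their r was not tested. Of 18031 other entries tested, 0.0222% had an r below -0.9 with GARS and 0.0721% with KARS. These entries include those described below whose counts are like those of GARS or KARS. Among the other synthetases, CARS (r = 0.68) and TARSL2 (0.61) varied most in the direction of GARS, and both lay opposite to KARS (-0.57 and -0.60).

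**Figure D4:**
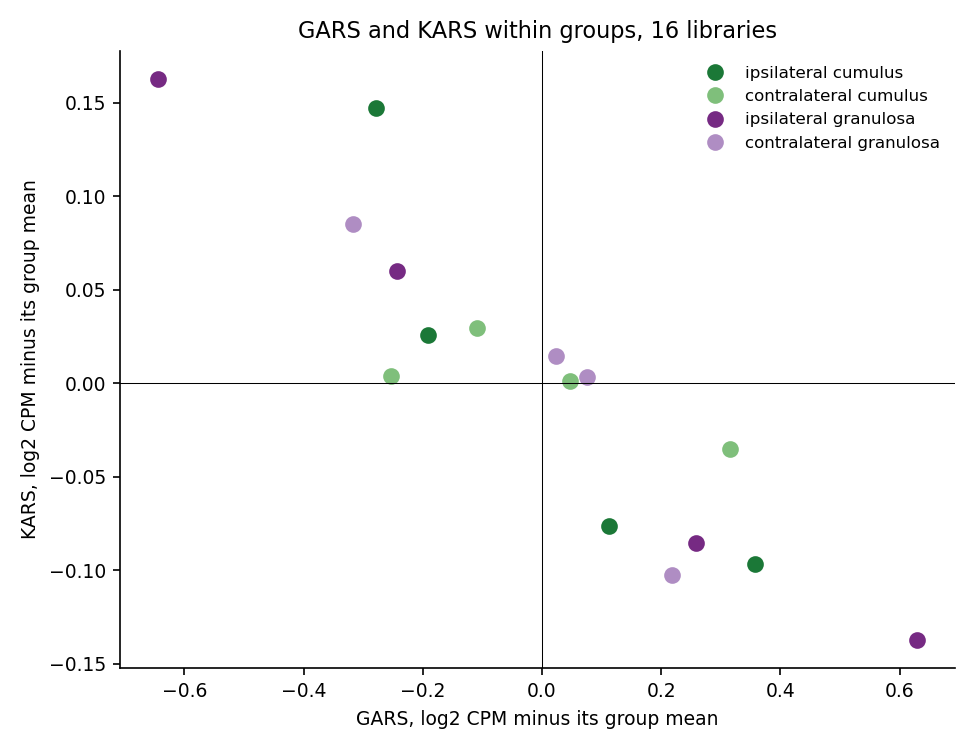
Deviation of log2 CPM from the group mean for GARS (horizontal axis) and KARS (vertical axis) in the 16 libraries, coloured by group. Libraries with more GARS have less KARS in both cell types (r = -0.80 in cumulus and -0.97 in granulosa cells), and GARS spans a wider range than KARS.

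Other pairs had r between -0.47 (GARS and SARS, adjusted p = 0.294 by permutation) and 0.55 (AARS and HARS, adjusted p = 0.3 by permutation). SARS and TARS had r = 0.87 over granulosa and -0.64 over cumulus libraries. By the same measure, the symbol entries most like each gene over the 16 libraries, out of 743 compared, were FUK (r = 0.90) and ADPRHL2 (0.90) for GARS and TRNAH-GUG (0.82) and JOSD1 (0.81) for AARS. For KARS they were PCBP1 (0.75) and ATP5MPL (0.74), for TARS C29H11orf80 (0.78) and MRPL14 (0.67), for HARS ZNF484 (0.72) and LARS (0.71), and for SARS C7H19orf24 (0.66) and RTL8C (0.65). Entries under an Ensembl ID or NCBI LOC number were left out (27607 and 7849 in the table, against 1368 symbols). Closer entries may exist among them. The values for all entries come from the same 16 libraries, which differ in depth and composition, and the highest of many values is high by selection.

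The title of the series names nearness of the corpus luteum, which the comparison of sides addresses. In cumulus cells 0 of 6 genes passed by edgeR, limma-voom or DESeq2, and 0 had an unadjusted p under 0.05 by edgeR. Of 16323 entries 0% passed by edgeR. GARS stood at 67.6 ± 14.01 CPM on the ipsilateral and 84.4 ± 14.6 CPM on the contralateral side (SD, n = 4 each), and its log2 fold change (ipsilateral minus contralateral) was -0.34 ± 0.16 SE (edgeR adjusted p = 0.467). Its 95% interval ran from 1.61-fold lower to 1.01-fold higher, and without contralateral cumulus library 3 its log2 fold change was -0.21. AARS stood at 190 ± 8.07 and 209 ± 11.9 CPM (-0.15 ± 0.08 SE, edgeR adjusted p = 0.488), with overlapping libraries. HARS (0.14 ± 0.11 SE), SARS (-0.12 ± 0.10), KARS (0.05 ± 0.08) and TARS (-0.03 ± 0.08) had smaller values. For the 5 genes other than GARS the intervals lay within 1.25-fold lower and 1.30-fold higher on the ipsilateral side.

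In granulosa cells 0 of 6 genes passed by the same tools, again with 0 at an unadjusted p under 0.05 by edgeR, and 0% of 16411 entries passed. The edgeR adjusted p was 1 for each of the 6. GARS stood at 89.7 ± 34.1 and 77.1 ± 11.6 CPM (0.20 ± 0.25 SE), and its interval ran from 1.29-fold lower to 1.70-fold higher. This direction rested on ipsilateral granulosa library 1, since without it the log2 fold change was -0.06. Leaving out library 3 of that group gave 0.37, and leaving out contralateral granulosa library 2 gave 0.10. AARS had -0.11 ± 0.11, KARS 0.04 ± 0.10, TARS 0.04 ± 0.11, SARS -0.03 ± 0.13 and HARS -0.00 ± 0.13. Apart from GARS, intervals lay within 1.27-fold lower and 1.22-fold higher.

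**Figure D5:**
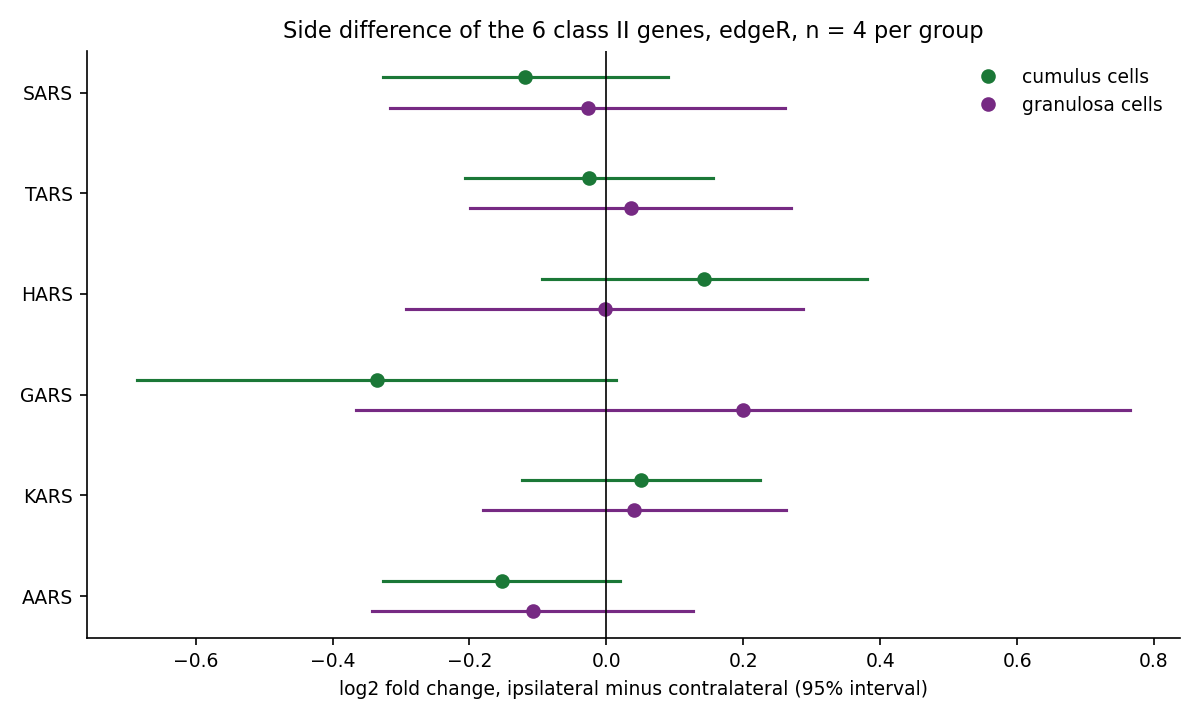
Log2 fold change, ipsilateral minus contralateral (horizontal axis), with its 95% interval for the 6 genes in cumulus (green) and granulosa cells (purple), 4 libraries a group. All 12 intervals include 0, and those of GARS are the widest, from -0.69 to 0.01 in cumulus and from -0.37 to 0.77 in granulosa cells.

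Whether the side difference itself differs between the cell types was tested in all 16 libraries. By edgeR, 0 of 6 genes and 0% of 18038 entries passed, and 0 of the 6 had an unadjusted p under 0.05. DESeq2 and limma-voom also called 0 of 6. GARS had the largest value of the 6 at -0.53 ± 0.32 SE (edgeR adjusted p = 0.729), which was -0.28 without ipsilateral granulosa library 1. HARS had 0.16 ± 0.17, and the other 4 lay between -0.08 and 0.02.

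Some of the 6 genes had a further entry with like counts, within 2% or 2 counts in every library for HARS and GARS and outside that limit for the others. HARS had the same counts as ENSBTAG00000018847 in all 16 libraries, GARS the same as ENSBTAG00000018972 in 13 of 16 (within 0.0870%), and TARS lay within 2.58% of ENSBTAG00000014261. The closest entries to SARS and KARS, ENSBTAG00000012962 and ENSBTAG00000015677, held 93.4% and 107% of their counts, with r of 0.999 and 0.997 over libraries. The log2 fold changes between cell types of these entries were -0.72, -0.12, -0.76, -0.85 and 0.17, beside -0.72, -0.12, -0.76, -0.84 and 0.21 for HARS, GARS, TARS, SARS and KARS. The closest entry to AARS, ENSBTAG00000000077, held 90.8% of its counts with r of 0.922. Its difference between cell types was not compared with that of AARS. By the RefSeq table of ARS-UCD2.0, AARS overlaps DDX19B, and TARS overlaps a long non-coding RNA. The library kits do not mark strand, so reads from these overlaps are uncertain in origin.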

How the data were processed

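The deposited table holds the authors' unnormalized read counts per gene entry, 1 column per library, matched to samples by title. Per the labels' protocols, SMART-Seq HT cDNA went into Nextera XT libraries that were read for 75 bp from a single end. STAR, Trimmomatic, FastQC and DESeq2 are listed, with no versions, in the submitters' processing notes. For the counter, annotation and build, the entry is: not given in the sources used here.

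Low entries were removed by filterByExpr with minima of 10 per library and 15 in total, and the rest scaled with TMM and tested with edgeR 4.0.16 (robust quasi-likelihood F-test, limma 3.58.1, R 4.3.3), with Benjamini-Hochberg adjustment over all entries and calls under 0.05. The fits were also run on simulated data. The outcome is not given here, so no result rests on it. Side comparisons used 8 libraries, the others 16 with 4 group means. SE is the size of the log2 fold change over the root of F, and 95% intervals use the fit's degrees of freedom. Alternatives were DESeq2 1.42.0, limma-voom, other scaling and filters, leaving out repeated entries or libraries, and 1 side alone. Replicates of a group differed beyond sampling noise (chi-square per gene from 12.9 to 78.7). A count of 0 allows up to 3 counts, 0.137 to 0.298 CPM, and covers counting error only.

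Named are the 6 genes, the tested entries of the fixed lists, and the 2 symbol entries most like each gene. The members and lists were chosen with earlier results of these data known. Of the lists, the mitochondrial synthetases, scaffold and editing helpers, elongation genes and amino acid response genes had 0 entries matched by name. A further gene chosen by the same rule is not reported here. Permutation tests of the pairs (100000 resamples) were added after the data had been seen.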

Additional observations from a re-analysis of the deposited data

How the results depend on the processing

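No paired analysis was possible because the labels give no replicate numbers within groups. Under the 27 alternatives for the cell type comparison, SARS, TARS, HARS and AARS kept their direction and passed in each, and 4 genes were called higher in granulosa cells in each. KARS (0.18 to 0.30) did not pass with ipsilateral libraries alone, which left 0 genes higher in cumulus cells in place of 1. The fit with contralateral libraries alone, of the same size, called KARS (edgeR adjusted p = 0.0313), and why these fits differ was not tested. GARS ran from -0.40 to 0.16 and never passed. Of the 6 genes, 0 were called in either side comparison or in the difference of the side differences under any alternative. Over all entries, DESeq2 called 120 by side in cumulus cells, 1 in granulosa cells and 1 for the difference of the side differences, where edgeR called 0. Without contralateral cumulus libraries 2 and 4, an alternative chosen after seeing the data, edgeR called 30 by side in cumulus cells. The cause was not tested. With CPM of library totals, KARS in contralateral cumulus cells had a mean of 386 in place of 371 CPM. Leaving out each library moved the median r of the 15 pairs between 0.07 and 0.29 and changed no count among the 6 genes.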
